A study of Mus musculus with 18 samples.

Results

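The RAS to ERK cascade carries growth factor signals from receptors at the membrane to the nucleus, and 10 genes whose products hold it back were followed here in mouse granulosa cells, out of 24963 genes measured. They were 4 RAS GTPase-activating proteins (Rasal1, Rasa1, Rasa2 and Nf1), 3 Sprouty genes (Spry1, Spry2 and Spry4), 2 Spred genes (Spred1 and Spred2) and the ERK phosphatase gene Dusp6. The list was selected on KO against WT results of these data, in which the rise of Rasal1 was already known, so the KO and WT values of the 10 genes are a description, and where members are counted past limits on p and fold the count follows from that choice and is no test.

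Granulosa cells, the somatic cells that surround the oocyte in the follicle, came from 3 mouse strains with mutations of the progesterone receptor (PGR) gene. The groups were PRKO KO (null for both the PGR-A and PGR-B isoforms), PRKO WT, PRAKO KO (null for PGR-A), PRAKO WT, PRBKO KO (null for PGR-B) and PRBKO WT. There were 3 libraries per group and 18 in all, and each library held cells pooled from 3 mice, so the spread between libraries is one between pools. All 6 groups were females of 21 to 27 days that received 5 IU equine chorionic gonadotropin, 46 h later 5 IU human chorionic gonadotropin (hCG), and were killed 8 h after hCG. The alleles are lost in the whole animal, so other PGR-expressing tissues of the KO mice lack the isoform too. Each KO group was set against the WT group of its own strain, and between strains the isoform lost and the strain cannot be told apart.

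RAS proteins are molecular switches that are active when bound to GTP. RAS GTPase-activating proteins speed up the hydrolysis of that GTP and return RAS to its inactive form, Sprouty and Spred proteins act further up or down the same cascade and are themselves induced by it, and DUSP6 removes the phosphates that activate ERK. In the follicle the luteinizing hormone surge, here given as hCG, leads granulosa cells to release EGF-like ligands that activate EGFR and through it ERK, and ERK activity in granulosa cells is needed for ovulation in the mouse.

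Values are TPM, a level per transcript length scaled to the same sum of 1000000 in each library, so the read depth of a library is not known from them. Protein-coding genes held 37.4% to 61.2% of TPM, and KO and WT libraries did not overlap in this share in any strain. It was 37.4% to 39.1% in PRKO KO, against 39.3% to 44.5% in PRKO WT. In PRAKO KO it was 44.7% to 47.8%, against 37.7% to 40.7% in PRAKO WT. The PRBKO KO libraries were the highest with 50.9% to 61.2%, against 42.7% to 47.4% in PRBKO WT. Over all genes tested, KO minus WT on the log2 scale had medians of -0.10 for PRKO, 0.22 for PRAKO and 0.22 for PRBKO. The level of the whole Pgr gene does not check these labels, since reads of it need not come from the part that was altered: it was 1.49 to 2.67 TPM in PRKO KO and 1.73 to 2.09 TPM in PRKO WT, 8.36 to 12.4 TPM in PRAKO KO and 0.829 to 1.10 TPM in PRAKO WT, and 2.62 to 4.88 TPM in PRBKO KO and 1.42 to 6.24 TPM in PRBKO WT. KO and WT therefore stand for libraries labelled so. Granulosa markers (Foxl2, Fshr, Lhcgr and 5 others) summed to between 2062 and 3588 TPM in every library.

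All 10 genes were measured in every library, and all 10 passed the filter on low values (at least 1 TPM in at least 3 libraries of a strain) in each strain. Dusp6 was the most abundant of them in each of the 18 libraries, with a median of 54.0 TPM, and Spry1 the least abundant, with a median of 2.79 TPM. Spry2 (median 17.2 TPM), Nf1 (16.6 TPM) and Spred2 (15.6 TPM) followed Dusp6 and changed places with each other between libraries: Spry2 exceeded Nf1 in 8 of 18 libraries, and Nf1 exceeded Spred2 in 7 of 18. Rasa1 (14.6 TPM) exceeded Spred1 (10.5 TPM) in 18 of 18, while Spred1, Rasal1 (8.46 TPM), Rasa2 (6.48 TPM) and Spry4 (5.94 TPM) again changed places. Of the 10, Rasal1 had the widest range of ranks. It ranked 2 of the 10 in each PRKO KO library and 6 or 7 in PRKO WT, 2 or 3 in PRAKO KO and 9 in PRAKO WT, and 7 to 9 in both PRBKO groups.

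**Figure D1:**
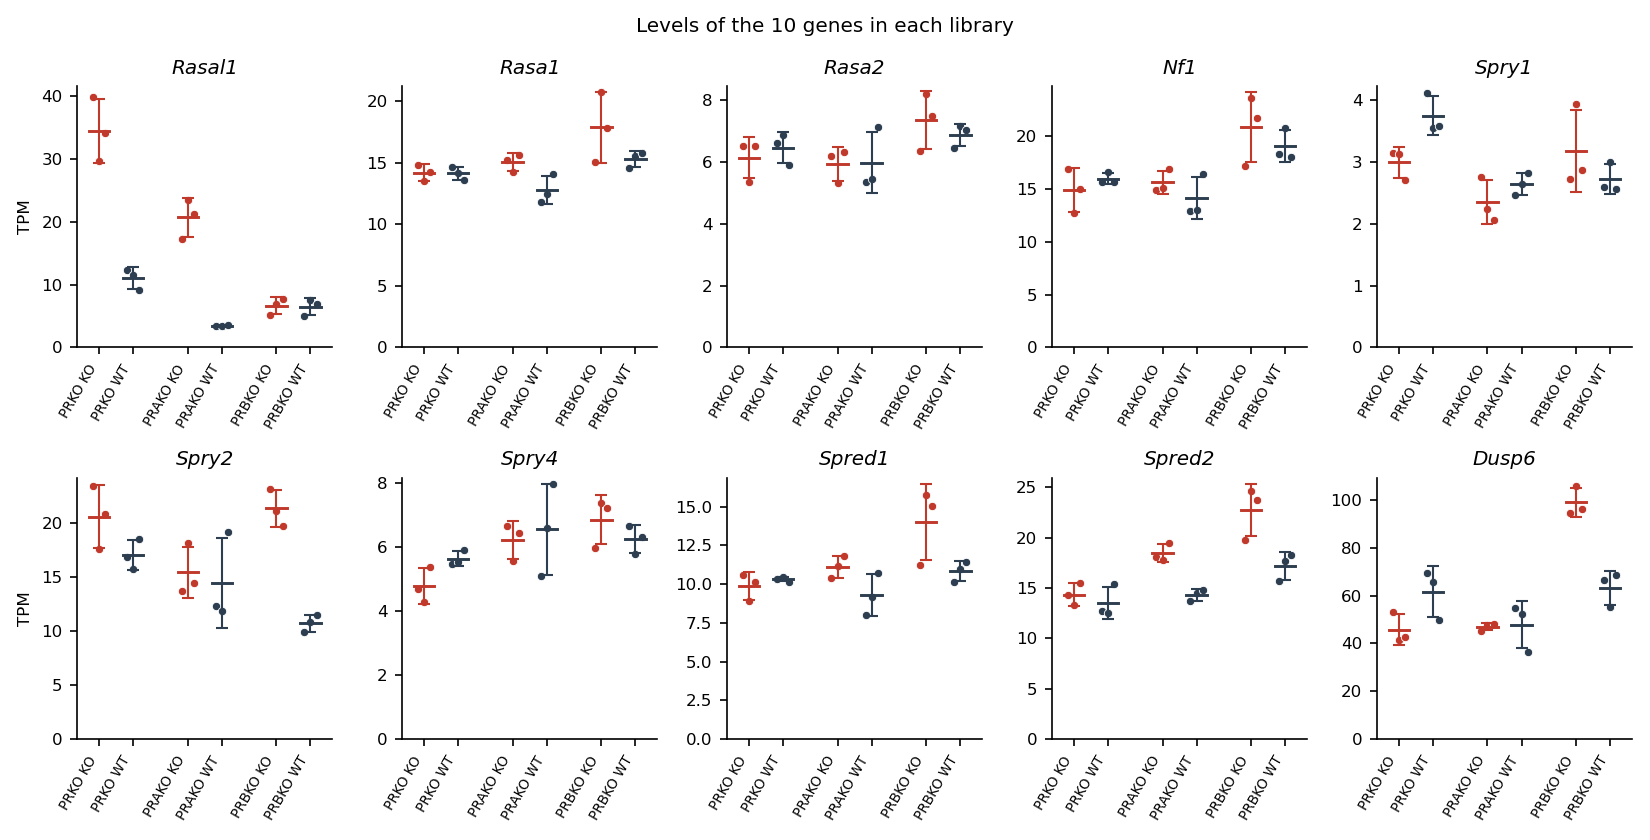
Level in TPM (y axis, from 0) of each of the 10 genes in the 6 groups (x axis, KO in red left of WT in dark blue), with 3 points for the libraries, a line for the mean and bars for the SD. Rasal1 lies at 29.7 to 39.8 TPM in PRKO KO and 9.12 to 12.4 TPM in PRKO WT, and Spry2 and Dusp6 lie higher in PRBKO KO than in PRBKO WT with no overlap.

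Rasal1 (gene 19415, chromosome 5, 120648040 to 120679597 in GRCm38.p6) encodes a RAS GTPase-activating protein that binds membranes in response to calcium. It had 39.8, 29.7 and 34.1 TPM in PRKO KO, against 12.4, 11.6 and 9.12 TPM in PRKO WT. In PRAKO KO it had 17.3, 23.5 and 21.3 TPM, against 3.35, 3.41 and 3.61 TPM in PRAKO WT. Every KO library of these strains lay above every WT library of its strain. In PRBKO KO it had 5.161, 6.997 and 7.797 TPM, against 4.96, 7.49 and 6.98 TPM in PRBKO WT, and those groups overlapped.

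The log2 fold change of Rasal1, on the log2(TPM + 0.5) scale used throughout, came to 1.60 ± 0.15 for PRKO (SE, n = 3 and 3, as in all that follow), 2.41 ± 0.12 for PRAKO and 0.04 ± 0.19 for PRBKO. In group means this was 3.13-fold in PRKO, 5.99-fold in PRAKO and 1.03-fold in PRBKO. The 95% interval ran from 1.25 to 1.95 in PRKO, from 2.14 to 2.68 in PRAKO and from -0.39 to 0.47 in PRBKO. Leaving out any 1 library gave 1.48 to 1.71 in PRKO and 2.32 to 2.53 in PRAKO. Among all genes tested its value stood at percentile 99.7 in PRKO and 99.9 in PRAKO, and at percentile 16.8 in PRBKO.

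The larger fold change in PRAKO did not go with a higher level in its KO libraries. PRAKO KO averaged 20.7 ± 3.11 TPM and PRKO KO 34.5 ± 5.10 TPM (SD, n = 3 each), while PRAKO WT averaged 3.46 ± 0.136 TPM and PRKO WT 11.1 ± 1.72 TPM. The WT libraries of the strains thus differed 3.20-fold between PRKO and PRAKO, a difference between strains and not between genotypes. PRBKO WT, at 6.48 ± 1.34 TPM, lay between them. The KO minus WT difference of Rasal1 was 0.81 ± 0.24 lower in PRKO than in PRAKO on the log2 scale (-0.81, 95% interval -1.33 to -0.29), 2.38 ± 0.24 higher in PRAKO than in PRBKO (1.86 to 2.89), and 1.57 ± 0.24 higher in PRKO than in PRBKO (1.05 to 2.08). These are on the deposited scale, where the same differences over all genes had medians of -0.30, -0.00 and -0.31 in that order. Less those medians Rasal1 stood at -0.51, 2.38 and 1.87.

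The table listed 6 transcripts of Rasal1, and their levels are estimates that divide shared sequence. NM_001281999 had a value above 0 in every library and 27.2% to 55.4% of the gene's TPM. It averaged 13.2 TPM in PRKO KO and 3.95 TPM in PRKO WT, 8.96 TPM in PRAKO KO and 1.09 TPM in PRAKO WT, and 2.93 TPM in PRBKO KO and 2.84 TPM in PRBKO WT. NM_001359145, also above 0 in every library, averaged 3.25 TPM in PRKO KO and 0.795 TPM in PRKO WT, and 2.27 TPM in PRAKO KO and 0.198 TPM in PRAKO WT. Both had KO libraries all above WT libraries in PRKO and PRAKO and overlapped in PRBKO. NM_001359147 also lay all above WT in PRKO and PRAKO, but in PRBKO all below at low levels (means of 0.171 TPM in KO and 0.562 TPM in WT). Since the estimates divide shared sequence, they do not settle whether the higher level was one of a single listed transcript. NM_013832 overlapped between KO and WT in each strain and was listed at 0 in 5 of 18 libraries.

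**Figure D2:**
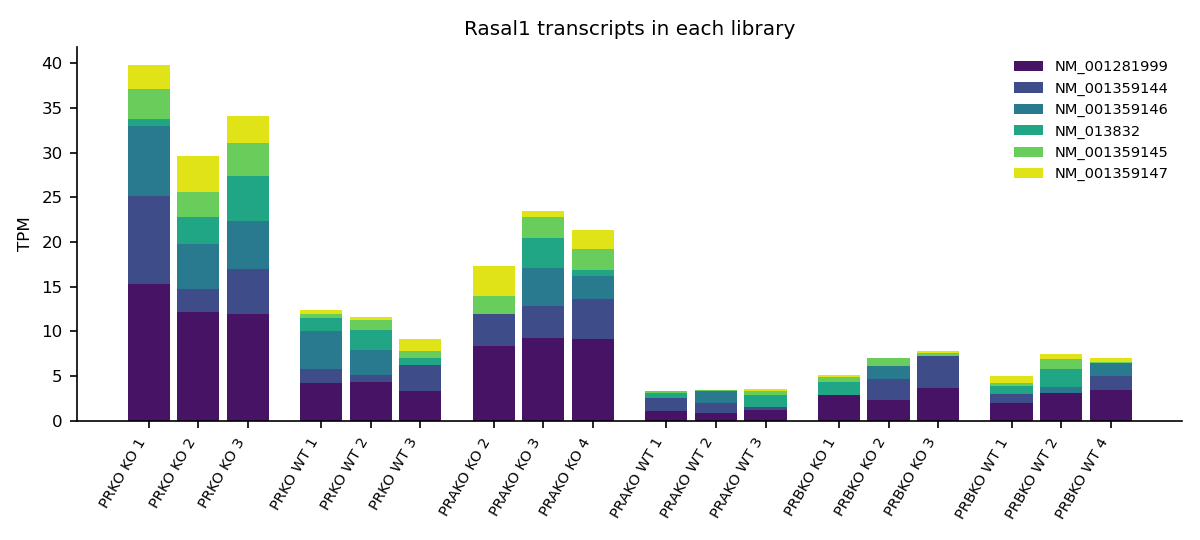
Stacked TPM (y axis) of the 6 listed Rasal1 transcripts in each of the 18 libraries (x axis, KO left of WT in each strain, numbered as labelled). The lowest segment of each bar, NM_001281999, is above 0 in all libraries and is larger in PRKO KO and PRAKO KO than in the WT libraries of those strains, while the upper segments change between libraries of one group.

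The other GTPase-activating proteins among the 10 stayed close to their WT levels. Rasa1 (chromosome 13), which binds phosphorylated receptors through SH2 domains, had 13.5 to 14.8 TPM in PRKO KO and 13.6 to 14.6 TPM in PRKO WT. In PRAKO KO it had 15.2, 14.3 and 15.6 TPM, against 11.8, 12.5 and 14.0 TPM in PRAKO WT, with no overlap and a log2 fold change of 0.23 ± 0.09 that other scalings brought to 0.01 to 0.03. In PRBKO its fold change was 0.21 ± 0.13 with overlap. Rasa2 (chromosome 9) ranged from 5.30 to 8.20 TPM over all libraries, overlapped in each strain and had fold changes of -0.07 ± 0.11 in PRKO, -0.00 ± 0.13 in PRAKO and 0.09 ± 0.13 in PRBKO. Nf1 (chromosome 11), which encodes neurofibromin, ranged from 12.8 to 23.7 TPM, overlapped in each strain and had fold changes of -0.11 ± 0.11, 0.15 ± 0.11 and 0.12 ± 0.14 in that order of strains. The intervals of Nf1 reached from -0.37 to 0.15 in PRKO and from -0.19 to 0.43 in PRBKO, so changes within these bounds could not be seen.

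A share within one library does not move with its scaling. Rasal1 made up 51.0%, 48.4% and 48.9% of the summed TPM of the 4 GTPase-activating genes in PRKO KO, against 25.2%, 23.6% and 20.6% in PRKO WT. In PRAKO KO the share was 32.3%, 40.4% and 35.5%, against 10.02%, 9.93% and 8.76% in PRAKO WT. In PRBKO KO it was 11.8%, 11.7% and 14.2%, against 11.2%, 14.7% and 14.6% in PRBKO WT. KO and WT libraries thus stood apart on this scale in PRKO and PRAKO and overlapped in PRBKO.

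**Figure D3:**
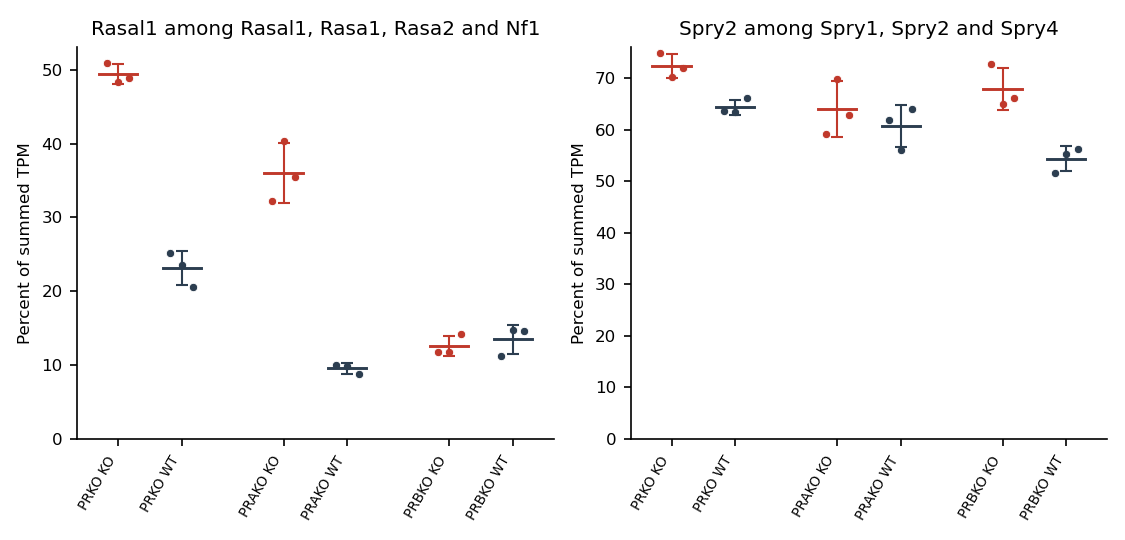
Percent of summed TPM within each library (y axis, from 0) held by Rasal1 among the 4 GTPase-activating genes (left) and by Spry2 among the 3 Sprouty genes (right), by group (x axis, KO in red left of WT in dark blue), with points for libraries and mean ± SD. The Rasal1 share averages 49.4% in PRKO KO and 23.1% in PRKO WT, and the Spry2 share 68.0% in PRBKO KO and 54.4% in PRBKO WT.

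Spry2, Dusp6 and Spred2 were the members with PRBKO KO libraries all above PRBKO WT libraries, as was the case for 33.5% of all genes, so this trait does not set them apart. The 250 bases before the annotated start of each of these members are shown so that their upstream sequences can be compared. RefSeq windows of GRCm38.p6 were matched for 8 of the 10 genes, Rasal1 and Spry4 being named only. Lower case marks the sequence, 5′ to 3′ on the strand of the gene, and capitals mark any match on either strand to a progesterone response element (GNACA and TGTNC with any 3 bases between them), a CRE (TGACGTCA), an AP-1 site (TGANTCA), an ETS site (CCGGAAGT), an EGR site (GCGTGGGCG) or an SP1 box (GGGCGG). The windows are chr14:105896820-105897069 (minus strand) for Spry2, chr10:99262981-99263230 (plus) for Dusp6 and chr11:19924192-19924441 (plus) for Spred2.
Spry2: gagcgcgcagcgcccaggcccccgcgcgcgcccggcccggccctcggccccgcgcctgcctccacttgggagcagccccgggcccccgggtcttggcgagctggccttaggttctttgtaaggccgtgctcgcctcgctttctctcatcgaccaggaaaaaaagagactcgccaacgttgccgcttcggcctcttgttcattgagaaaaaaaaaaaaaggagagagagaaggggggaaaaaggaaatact
Dusp6: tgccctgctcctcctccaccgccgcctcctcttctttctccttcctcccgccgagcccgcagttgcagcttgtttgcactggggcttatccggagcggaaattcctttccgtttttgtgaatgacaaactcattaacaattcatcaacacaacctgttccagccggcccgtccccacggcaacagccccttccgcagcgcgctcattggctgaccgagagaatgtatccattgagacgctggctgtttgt
Spred2: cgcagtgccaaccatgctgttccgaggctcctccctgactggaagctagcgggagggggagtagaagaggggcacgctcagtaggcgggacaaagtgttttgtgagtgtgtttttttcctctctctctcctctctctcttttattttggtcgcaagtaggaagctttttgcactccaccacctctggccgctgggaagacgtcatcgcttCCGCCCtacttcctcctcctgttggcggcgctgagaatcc

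These letters were not found in the Spry2 and Dusp6 windows, and the Spred2 window held 1 SP1 box, 40 bases before the start. None of the 8 windows held the progesterone response element, which was in 0.387% of 32851 windows of the same length, nor a CRE (1.55% of windows), an AP-1 site (6.75%) or an EGR site (0.536%). The ETS letters were in the Nf1 window, 218 bases before its 3′ end, and in 2.88% of all windows. That window (chr11:79339642-79339891, plus) lies inside the annotated gene, which begins at 79339590. The Rasa2 window (chr9:96631504-96631753, minus) overlaps its gene, which reaches to 96631612. The SP1 box was in the windows of Rasa1, Rasa2, Spry1, Spred1 and Spred2 and in 32.7% of all windows. GC content was 62.4% in the Spry2 window, 56.4% in that of Dusp6 and 56.0% in that of Spred2, with a median of 52.4% over all windows.

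Spry2 (chromosome 14), a Sprouty protein that ERK signalling induces and that dampens receptor signals to RAS, had 23.2, 21.1 and 19.7 TPM in PRBKO KO, against 9.89, 10.9 and 11.5 TPM in PRBKO WT. Every KO library was above every WT library. The log2 fold change was 0.96 ± 0.12, or 1.99-fold in group means, and lay just under the fold limit of 1 used for calls below. It stood at percentile 98.8 of all genes tested in PRBKO. Less the median of all genes it was 0.74, and 0.66 to 0.74 with 3 other scalings. In PRKO KO Spry2 had 23.4, 17.6 and 20.8 TPM, against 16.8, 15.8 and 18.5 TPM in PRKO WT, with overlap and a fold change of 0.26 ± 0.12. In PRAKO KO it had 13.7, 18.1 and 14.5 TPM, against 12.3, 11.8 and 19.2 TPM in PRAKO WT, again with overlap, and the fold change of 0.12 ± 0.19 changed sign with other scalings.

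The WT level of Spry2 was lowest in PRBKO WT, at 10.7 ± 0.786 TPM, against 17.0 ± 1.37 TPM in PRKO WT and 14.4 ± 4.13 TPM in PRAKO WT (SD, n = 3 each). PRBKO KO, at 21.4 ± 1.74 TPM, was close to PRKO KO at 20.6 ± 2.94 TPM on the deposited scale only. Protein-coding genes held 50.9% to 61.2% of TPM in PRBKO KO and 37.4% to 39.1% in PRKO KO, so equal TPM is not an equal share of protein-coding TPM. Spry1 (chromosome 3) had 3.15, 3.13 and 2.71 TPM in PRKO KO, against 4.12, 3.56 and 3.58 TPM in PRKO WT, a log2 fold change of -0.28 ± 0.10 with no overlap. Spry4 had 4.68, 4.29 and 5.39 TPM in PRKO KO, against 5.47, 5.52 and 5.91 TPM in PRKO WT, a log2 fold change of -0.22 ± 0.10 with no overlap. Other scalings gave -0.19 to -0.18 for Spry1 and -0.13 to -0.11 for Spry4 in PRKO. In PRAKO and PRBKO both genes overlapped between KO and WT, with fold changes from -0.14 to 0.18.

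As a share of the 3 Sprouty genes, Spry2 was higher in KO in a pair of strains. It held 74.9%, 70.3% and 72.0% in PRKO KO, against 63.7%, 63.5% and 66.1% in PRKO WT. In PRBKO KO it held 72.7%, 65.1% and 66.2%, against 51.7%, 55.3% and 56.3% in PRBKO WT. The groups did not overlap in these strains, and in PRAKO they did, at 59.2% to 69.9% in KO and 56.2% to 64.0% in WT.

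Spred2 (chromosome 11), whose protein brings neurofibromin to the membrane, had 18.03, 17.8 and 19.5 TPM in PRAKO KO, against 13.7, 14.5 and 14.8 TPM in PRAKO WT. In PRBKO KO it had 19.8, 24.7 and 23.7 TPM, against 15.7, 17.6 and 18.3 TPM in PRBKO WT. Neither pair of groups overlapped, and the log2 fold changes were 0.35 ± 0.07 in PRAKO and 0.39 ± 0.12 in PRBKO. Less the median of all genes they were 0.14 and 0.17, and other scalings gave 0.13 to 0.16 and 0.08 to 0.16 in that order. In PRKO the fold change of Spred2 was 0.09 ± 0.10 with overlap. Spred1 (chromosome 2), its close relative, overlapped in each strain and had fold changes of -0.06 ± 0.08 in PRKO, 0.25 ± 0.11 in PRAKO and 0.34 ± 0.14 in PRBKO.

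Dusp6 (chromosome 10), the cytoplasmic phosphatase that is selective for ERK and is induced by it, had 94.6, 105.9 and 96.3 TPM in PRBKO KO, against 66.4, 55.2 and 68.4 TPM in PRBKO WT. Every KO library was above every WT library. On the deposited scale the PRBKO KO libraries were the highest of the 18, but they also had the highest protein-coding share (50.9% to 61.2%). That ranking across strains is therefore not free of scaling. The log2 fold change was 0.64 ± 0.11, at percentile 96.7 of all genes tested, and 0.33 to 0.41 with other scalings. In PRKO KO Dusp6 had 53.1, 41.6 and 42.6 TPM, against 69.6, 65.7 and 49.8 TPM in PRKO WT. A single WT library overlapped the KO range there, and the fold change was -0.42 ± 0.15, or -0.32 to -0.29 with other scalings. In PRAKO KO it had 45.2, 47.6 and 48.2 TPM, against 54.8, 52.4 and 36.4 TPM in PRAKO WT, with overlap and a fold change of -0.00 ± 0.15. The KO minus WT difference of Dusp6 was lower in PRKO than in PRBKO by 1.06 ± 0.22 on the log2 scale (-1.06, 95% interval -1.52 to -0.61), and in PRAKO than in PRBKO by 0.65 ± 0.22 (-0.65, -1.11 to -0.19). Less the medians of all genes for these differences, Dusp6 stood at -0.76 and -0.65.

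Marker genes of other cells moved beside these values, and in bulk samples fewer cells of a type and less RNA per cell cannot be told apart. Cumulus genes (Has2, Ptx3, Tnfaip6 and Cd44) summed to 245 to 256 TPM in PRBKO KO, against 155 to 166 TPM in PRBKO WT. Tnfaip6 held most of that difference, with means of 114.7 TPM in PRBKO KO and 60.04 TPM in PRBKO WT. Of the 4 genes 3 lay all above WT in PRBKO, as did 33.5% of all genes, and Ptx3 overlapped. Erythroid genes (5) summed to 222 to 358 TPM in PRBKO KO and 74.8 to 205 TPM in PRBKO WT, and to 184 to 318 TPM in PRKO KO and 54.3 to 134 TPM in PRKO WT. KO libraries lay all above WT libraries for 3 of 3 erythroid genes tested in PRKO (6.37% of all genes) and 3 of 5 in PRBKO (33.5% of all genes). Hbb-bs was listed at 0 in 2 PRKO KO and 1 PRKO WT libraries. Endothelial genes (6) summed to 17.5 to 21.6 TPM in PRAKO KO and 38.1 to 42.0 TPM in PRAKO WT, to 43.1 to 55.7 TPM in PRKO KO and 57.3 to 62.7 TPM in PRKO WT, and to 41.8 to 46.5 TPM in PRBKO KO and 31.1 to 39.7 TPM in PRBKO WT. In PRAKO Cdh5 held most of the difference between KO and WT, with a mean of 9.33 TPM in KO and 27.97 TPM in WT, and the other 4 endothelial genes tested there overlapped. In PRKO Cdh5 averaged 15.75 TPM in KO and 27.52 TPM in WT, and 5 of the 6 genes lay all below WT, as did 25.6% of all genes. Kdr lay all above WT in PRKO, with means of 18.68 TPM in KO and 12.46 TPM in WT. In PRBKO Cdh5 averaged 31.67 TPM in KO and 25.11 TPM in WT. Of 5 genes tested 2 lay all above WT, as did 33.5% of all genes, and 3 overlapped. Oocyte genes (5) summed to 104 to 124 TPM in PRKO KO and 137 to 179 TPM in PRKO WT, and granulosa markers to 2892 to 3232 TPM in PRAKO KO and 2062 to 2227 TPM in PRAKO WT. Inha made up most of the granulosa sum, with a mean of 2199 TPM in PRAKO KO and 1483 TPM in PRAKO WT. Fshr, the receptor of follicle-stimulating hormone, averaged 18.1 TPM in PRAKO KO and 32.5 TPM in PRAKO WT and 10.9 TPM in PRKO KO and 41.3 TPM in PRKO WT, with KO libraries all below WT libraries in both strains. Other granulosa markers did not follow Fshr. In PRAKO 5 of the 8 lay all above WT, where 45.0% of all genes did, and 2 overlapped. Among the 5 was Lhcgr, with means of 139.8 TPM in KO and 64.65 TPM in WT. In PRKO the other 7 overlapped. The part of all these marker genes in the values of the 10 genes was not tested.

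**Figure D4:**
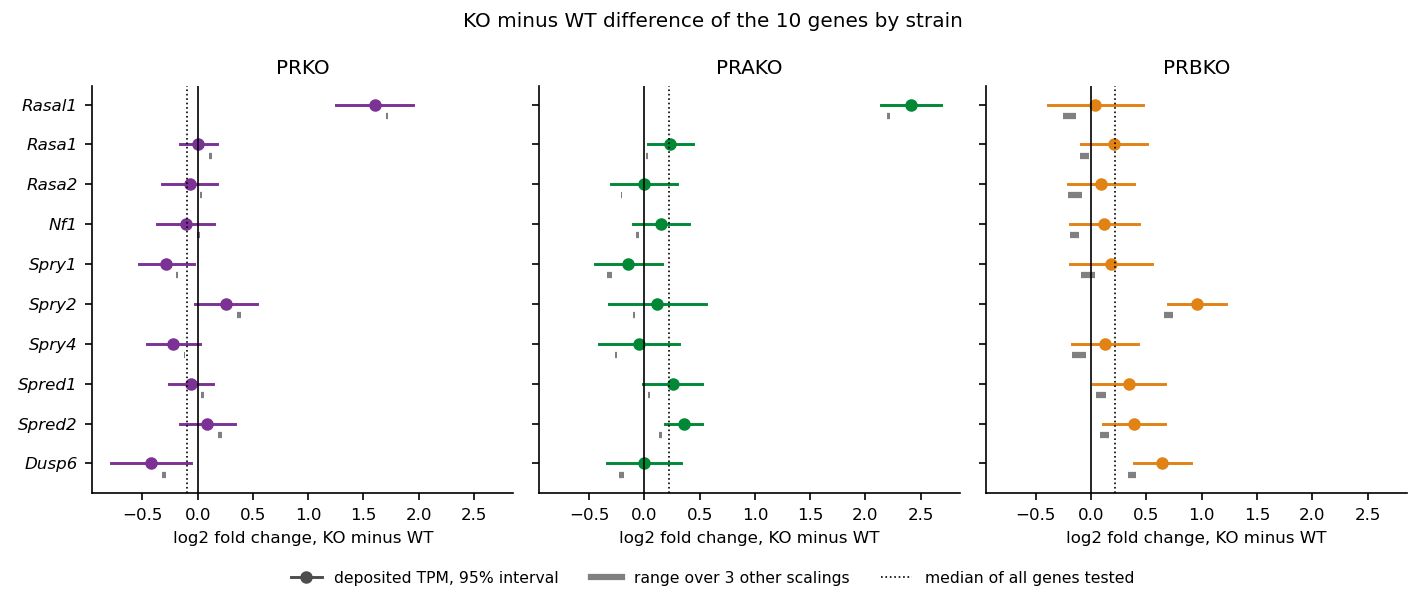
Log2 fold change, KO minus WT (x axis), of the 10 genes (y axis) in each strain: points with 95% intervals are from TPM as deposited, grey bars the range over 3 other scalings and dotted lines the median of all genes tested. Rasal1 stands apart at 1.60 in PRKO and 2.41 in PRAKO and lies at 0.04 in PRBKO, where Spry2 (0.96) and Dusp6 (0.64) are the highest of the 10.

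Counted over the list, 1 of the 10 genes in PRKO, 1 in PRAKO and 0 in PRBKO lay past the limits used for the other genes below, an adjusted p of 0.01 and an absolute log2 fold change of 1 in limma. The gene was Rasal1 in both, whose rise was among the results the list was selected on. Over all genes 2.14% of 13910 in PRKO, 2.05% of 13910 in PRAKO and 0.133% of 14329 in PRBKO did so. KO libraries lay all above WT libraries for 1 member in PRKO, 3 in PRAKO and 3 in PRBKO, against 6.37%, 45.0% and 33.5% of all genes in that order of strains. KO libraries lay all below WT libraries for 2, 0 and 0 members, against 25.6%, 6.30% and 1.21% of all genes. The 10 had median log2 fold changes of -0.07 (PRKO), 0.13 (PRAKO) and 0.19 (PRBKO), beside -0.10, 0.22 and 0.22 for all genes. At an adjusted p of 0.05 with no fold limit the members counted were 1 in PRKO, 2 in PRAKO and 2 in PRBKO, where the shares of all genes were 9.96%, 34.5% and 3.48%. Since the list was chosen with such results known, nothing is read from these counts.

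The 5 protein-coding genes nearest to Rasal1 in pattern were Olfml2b, Cyp26b1, Rprm, Npr3 and Plau, by the root mean square difference of log2(TPM + 0.5), each gene centred on its own mean over the 18 libraries, among 12663 genes. Olfml2b was nearest, with a difference of 0.23, and averaged 26.6 TPM in PRKO KO and 8.92 TPM in PRKO WT, 17.9 TPM in PRAKO KO and 3.94 TPM in PRAKO WT, and 5.82 TPM in PRBKO KO and 5.30 TPM in PRBKO WT. The others lay at 0.40 to 0.45. Cyp26b1, which encodes an enzyme that breaks down retinoic acid, averaged 5.72 TPM in PRAKO KO and 0.589 TPM in PRAKO WT, and Plau, the urokinase plasminogen activator, 504 TPM in PRKO KO and 108 TPM in PRKO WT. The other 9 members lay at 0.98 (Spry2) to 1.28 (Dusp6), around the median of 1.13 over all genes compared. The 18 points share strain and genotype, so these distances are a description.

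Around the 10 genes, 91 other genes of the cascade were examined in 8 lists by role, of which 79 could be tested in PRKO, 78 in PRAKO and 79 in PRBKO. At the same limits 3 fell and 0 rose in PRKO, 2 fell and 0 rose in PRAKO, and 1 rose and 0 fell in PRBKO. At an unadjusted p under 0.05 there were 5 higher and 21 lower in PRKO, 32 and 15 in PRAKO, and 43 and 1 in PRBKO. The share of all genes at that unadjusted limit was not counted, and the median of all genes was itself shifted in each strain. Nothing is therefore read from unadjusted counts, here or for the lists and contrasts below. Their median log2 fold changes were -0.12 (PRKO), 0.15 (PRAKO) and 0.29 (PRBKO), beside the -0.10, 0.22 and 0.22 of all genes. With 3 other scalings 39 to 52 of the 79 genes had a positive fold change in PRBKO, against 74 of 79 on the deposited scale. KO libraries lay all above WT libraries for 7, 27 and 46 of them and all below for 22, 14 and 1 in that order of strains. Over all genes the shares were 6.37%, 45.0% and 33.5% above and 25.6%, 6.30% and 1.21% below.

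Receptors held the largest fall in PRKO. Egfr, the receptor of the EGF-like ligands of the ovulating follicle, had 13.9, 11.9 and 11.7 TPM in PRKO KO, against 43.4, 45.3 and 43.7 TPM in PRKO WT, a log2 fold change of -1.78 ± 0.08 (limma adjusted p = 7.9e-05). In PRAKO KO it had 30.5, 25.5 and 29.6 TPM, against 51.1, 51.2 and 65.7 TPM in PRAKO WT. Its fold change there, -0.96 ± 0.12 (limma adjusted p = 0.0013), fell short of the fold limit. Egfr was called lower in PRAKO with each of the 3 other scalings. It was also called lower when PRAKO KO replicate 2, PRAKO WT replicate 1 or PRAKO WT replicate 2 was left out. The replicate block, which in PRAKO rests on replicates 2 and 3 alone, called it lower too. In PRBKO it had 82.8 to 115 TPM in KO and 67.0 to 73.0 TPM in WT (0.50 ± 0.13, limma adjusted p = 0.061). Met, the receptor of hepatocyte growth factor, averaged 3.08 ± 0.347 TPM in PRKO KO and 8.72 ± 0.649 TPM in PRKO WT (SD, n = 3 each), a log2 fold change of -1.37 ± 0.10 (limma adjusted p = 0.00045). Of 11 receptors tested in PRKO, 2 fell and 9 did not pass, among them Fgfr2 (-0.57), Kit (-0.48) and Kdr (0.55). By limma on the deposited scale 0 receptors passed in PRAKO and PRBKO, where 8 and 4 of 11 had an unadjusted p under 0.05. Met was at 1.05 ± 0.21 in PRBKO (limma adjusted p = 0.036).

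Among RAS GTPases, Rras2, a RAS relative that also activates the cascade, fell in both PRKO and PRAKO. It had 13.8, 14.0 and 13.4 TPM in PRKO KO, against 31.5, 33.2 and 43.3 TPM in PRKO WT, a log2 fold change of -1.35 ± 0.12 (limma adjusted p = 0.00092). In PRAKO KO it had 17.9, 16.8 and 18.6 TPM, against 50.6, 48.6 and 52.8 TPM in PRAKO WT, a log2 fold change of -1.49 ± 0.07 (limma adjusted p = 1.3e-05). In PRBKO KO it had 57.8 to 68.7 TPM, against 47.7 to 55.7 TPM in PRBKO WT (0.30 ± 0.11, limma adjusted p = 0.12). The other 8 GTPases tested did not pass in any strain, with fold changes for Nras of 0.03 in PRKO, 0.30 in PRAKO and 0.37 in PRBKO. Rras was at -0.10, 0.37 and 0.58 in that order of strains, and Rap1b at -0.12, 0.13 and 0.38.

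Of the other inhibitors, Errfi1 rose in PRBKO. The study itself, using limma-voom, reports no differentially expressed genes in PRBKO at these limits, so this call differs from its result. Errfi1, whose protein binds EGFR and blocks its kinase, had 375, 314 and 330 TPM in PRBKO KO, against 141, 154 and 156 TPM in PRBKO WT, a log2 fold change of 1.17 ± 0.11 (limma adjusted p = 0.0019). With 3 other scalings the fold change was 0.85 to 0.93 and no longer called, with no filter the limma adjusted p was 0.02, and without PRBKO KO replicate 1 it was 1.10 (limma adjusted p = 0.012). Errfi1 averaged 105 ± 21.97 TPM in PRKO KO and 141 ± 6.57 TPM in PRKO WT, and 115 ± 19.9 TPM in PRAKO KO and 161 ± 18.2 TPM in PRAKO WT (SD, n = 3 each), and neither difference passed. Cblb, a ubiquitin ligase that acts on receptors, had 40.3 to 42.1 TPM in PRAKO KO and 23.5 to 26.6 TPM in PRAKO WT, a log2 fold change of 0.74 ± 0.07 (limma adjusted p = 0.00045) under the fold limit. Spred3, the third Spred gene, was at 0.59 ± 0.10 in PRAKO (limma adjusted p = 0.0064), and Pebp1, which encodes a RAF inhibitor, at 0.44 ± 0.09 (limma adjusted p = 0.013). These PRAKO values are on the deposited scale, where the median of all genes was 0.22. Dok1, a docking protein that recruits RASA1, was at -0.60 ± 0.14 in PRKO and 0.69 ± 0.14 in PRBKO and passed in neither.

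The other RAS GTPase-activating proteins gave 0 calls by limma among 5 tested genes in each strain, with an unadjusted p under 0.05 for 0 in PRKO, 4 in PRAKO and 3 in PRBKO. Rasa3 had 14.1 to 15.2 TPM in PRAKO KO and 8.30 to 8.81 TPM in PRAKO WT, a log2 fold change of 0.75 ± 0.07 (limma adjusted p = 0.00049) under the fold limit. In PRAKO Dab2ip was at 0.39, Rasal2 at 0.31 and Rasa4 at 0.12, all of them under that limit. The median of all genes on this deposited scale was 0.22 in PRAKO. None of the 5 had a fold change as large as that of Rasal1 in PRKO or PRAKO. The rise of Rasal1 was known when the list was selected, so nothing is read from this.

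MAP kinase phosphatases other than Dusp6 had medians of -0.39 in PRKO, -0.12 in PRAKO and 0.63 in PRBKO, over 9, 10 and 10 genes tested, beside -0.10, 0.22 and 0.22 for all genes. Dusp2, a nuclear phosphatase of ERK, had 0.235, 0.159 and 0.358 TPM in PRAKO KO, against 1.95, 2.58 and 1.57 TPM in PRAKO WT, a log2 fold change of -1.74 ± 0.20 (limma adjusted p = 0.00089) at low levels. It passed the filter on low values only through the WT libraries, where it was high, so the call is not independent of the filter. Without any 1 of the 3 PRAKO WT libraries, or at a mean of 5 TPM, it no longer passed the filter, and with quantile normalization the limma adjusted p was 0.013. In PRBKO 7 of the 10 had KO libraries all above WT libraries, as did 33.5% of all genes, and 0 were called by limma, with an unadjusted p under 0.05 for 7 higher and 1 lower. Dusp8 had a fold change of 1.11 ± 0.15 there (limma adjusted p = 0.011), Dusp4 1.02 ± 0.19 (limma adjusted p = 0.029), Dusp1 0.91 ± 0.13 (limma adjusted p = 0.015), Dusp10 0.98 ± 0.24 (limma adjusted p = 0.054) and Dusp5 0.62 ± 0.13 (limma adjusted p = 0.038). Dusp5 had 24.1 to 28.1 TPM in PRAKO KO and 38.7 to 42.0 TPM in PRAKO WT, a log2 fold change of -0.62 ± 0.08 (limma adjusted p = 0.0014) under the fold limit.

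Transcripts known to rise with ERK activity gave 0 calls by limma of 14 tested in each strain, with an unadjusted p under 0.05 for 5 in PRKO, 10 in PRAKO and 10 in PRBKO. Their medians were 0.09 in PRKO, 0.39 in PRAKO and 0.56 in PRBKO, beside -0.10, 0.22 and 0.22 for all genes. In PRBKO 10 of 14 had KO libraries all above WT libraries, as did 33.5% of all genes. Fos, a subunit of AP-1, had 580 to 622 TPM in PRBKO KO and 259 to 328 TPM in PRBKO WT, a log2 fold change of 0.98 ± 0.12 (limma adjusted p = 0.0072) just under the fold limit. Egr1 had 1667 to 1935 TPM in PRBKO KO and 807 to 1075 TPM in PRBKO WT (0.89 ± 0.13, limma adjusted p = 0.016). Emp1 had 24.5 to 47.5 TPM in PRBKO KO and 10.7 to 13.4 TPM in PRBKO WT, a log2 fold change of 1.49 ± 0.21 past the fold limit but not the p limit (limma adjusted p = 0.015). Ier3, an immediate early gene, had KO libraries all above WT libraries in each strain, with fold changes of 0.64 in PRKO, 0.56 in PRAKO and 0.90 in PRBKO, none past the limits. Fosl1, another AP-1 subunit, had 15.5 to 17.4 TPM in PRAKO KO and 29.7 to 31.2 TPM in PRAKO WT, a log2 fold change of -0.88 ± 0.07 (limma adjusted p = 0.00016) under the fold limit, and was called lower with each of the 3 other scalings.

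Among adaptors and exchange factors 0 of 12, 11 and 11 genes tested were called in PRKO, PRAKO and PRBKO, and among kinases and scaffolds 0 of 10 in each, by limma. An unadjusted p under 0.05 was reached by 2, 5 and 5 adaptors and by 2, 4 and 5 kinases in that order of strains. Gab2, a docking protein, had 16.6 to 19.5 TPM in PRKO KO and 33.8 to 36.2 TPM in PRKO WT, and Sos2, an exchange factor that loads RAS with GTP, 16.2 to 20.3 TPM in PRKO KO and 30.5 to 32.0 TPM in PRKO WT. Their log2 fold changes, -0.92 ± 0.08 (limma adjusted p = 0.00085) and -0.75 ± 0.09 (limma adjusted p = 0.0031), were under the fold limit. Ksr1, a scaffold of RAF, MEK and ERK, had 0.79 ± 0.11 in PRAKO (limma adjusted p = 0.0028), 0.76 ± 0.12 in PRBKO (limma adjusted p = 0.018) and -0.16 ± 0.10 in PRKO. Mapk3, which encodes ERK1, was at 0.04 in PRKO, 0.32 in PRAKO and 0.09 in PRBKO. Grb2, Frs2, Sos1, Map2k2, Araf and Lamtor3 lay between -0.22 and 0.42 in all strains.

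Whether KO effects differed between strains was tested for the 91 genes in a fit of all 18 libraries. Between PRKO and PRAKO 0 differed at these limits by limma, beside 0.510% of 14893 genes, and 29 of the 81 tested had an unadjusted p under 0.05. Ksr1 (-0.94 ± 0.16, limma adjusted p = 0.0045) missed the fold limit there, and Dusp2 (1.13 ± 0.27, limma adjusted p = 0.021) missed the p limit. Between PRAKO and PRBKO 7 differed (2.01% of all genes), and between PRKO and PRBKO 11 (3.75%), with a lower KO effect in PRAKO or PRKO for each. Egfr differed by -2.29 ± 0.17 between PRKO and PRBKO (limma adjusted p = 3e-07) and by -1.46 ± 0.17 between PRAKO and PRBKO (limma adjusted p = 4.1e-05). Rras2 differed by -1.65 ± 0.15 (limma adjusted p = 1.7e-06) and -1.79 ± 0.15 (limma adjusted p = 1.6e-06) in the same order, and Errfi1 by -1.61 ± 0.19 (limma adjusted p = 3e-05) and -1.66 ± 0.19 (limma adjusted p = 4.5e-05). Of the 11 differences between PRKO and PRBKO, those of Dusp8, Egfr, Errfi1, Met and Rras2 remained with 3 other scalings.

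**Figure D5:**
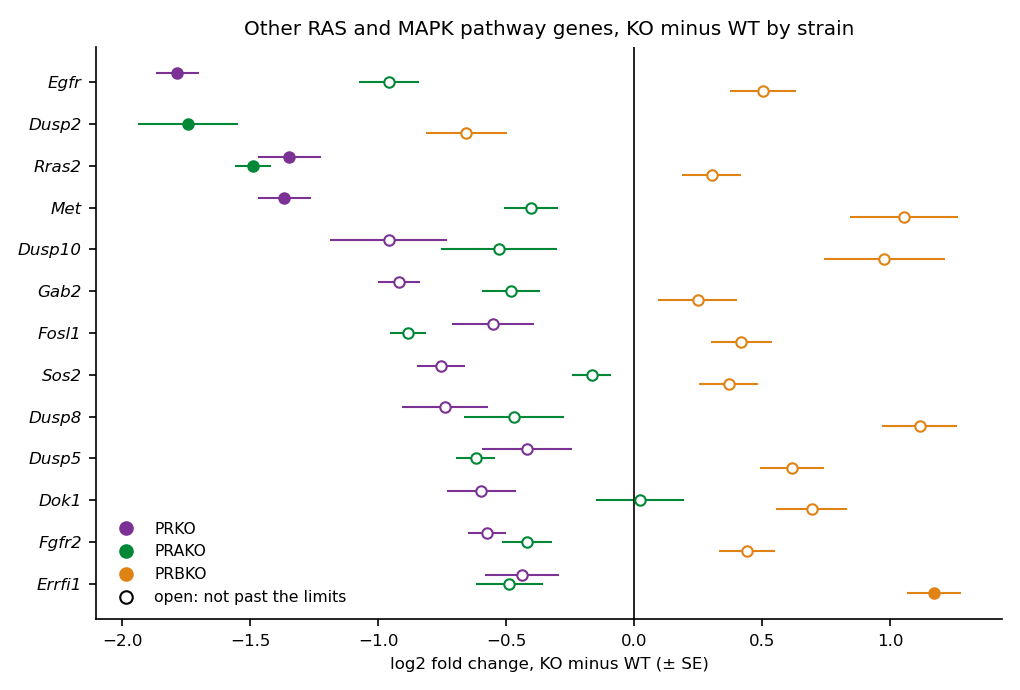
Log2 fold change, KO minus WT ± SE (x axis), of 13 other genes of the cascade (y axis) that were called in a strain or in a difference between strains, with PRKO in purple, PRAKO in green and PRBKO in orange and filled points for calls. Egfr lies at -1.78 in PRKO, -0.96 in PRAKO and 0.50 in PRBKO, and Rras2 at -1.35, -1.49 and 0.30.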

How the data were processed

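Granulosa cell RNA of 18 libraries was sequenced by the authors as total RNA, 3 libraries in each of 6 groups taken from the sample labels. The study describes 4 biological replicates per genotype, and the others are not analysed here. What the authors deposited was TPM for each transcript. Per the study's methods the authors ran FastQC, AdapterRemoval where needed and Salmon on the GENCODE mouse transcriptome (GRCm38.p6, release M25), and edgeR and limma are named as well in the processing notes of the submitters. The deposited rows are RefSeq transcripts, and tool versions are not given in the sources used here. Read depth cannot be had from TPM, so neither a count test nor a counting interval or detection floor was used. No label says more of the replicates than that each pools 3 mice, so p-values measure the spread between pools.

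TPM was summed per gene of the RefSeq annotation of that build (42072 of 42251 transcripts matched, 24963 genes). The 179 unmatched transcripts, 0.963% to 1.61% of TPM, were left out. Each strain was fitted with limma 3.58.1 (R 4.3.3) on log2(TPM + 0.5) with a trended prior, for genes at 1 TPM or more in at least 3 of 6 libraries. The voom weights of the study need counts and were not used. Genes were called, two-sided, at the limits of the study, a Benjamini-Hochberg adjusted p up to 0.01 with a log2 fold change of 1 or more in size. Differences between strains were contrasts in 1 fit of all 18 libraries. Percentiles are of a gene's fold change among all genes tested, and other scalings were median-of-ratios size factors, TPM rescaled to protein-coding genes and quantile normalization. The fits were tested on simulated data that drew each gene independently at its own mean and spread. Those data held no shift in the protein-coding share, so the test says nothing of the scaling. Pearson r between replicates was 0.967 or more, and no libraries held identical values. Tables and figures used Python 3.11.15, pandas 2.3.3 and matplotlib 3.10.9.

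The members and lists were chosen with earlier results of these data known. Named were the 10 members, up to 5 genes of each of 8 lists by smallest p over the strains with every called gene (41 in all), and the 5 genes nearest to Rasal1. Some genes of the lists are not reported here. Promoter sequences were from RefSeq, GRCm38.p6. Alternatives were the 3 scalings, another pseudocount (1 or 0.1), dropping the filter or raising it to a mean of 5 TPM, a constant prior, a replicate block, 1 fit of all 18 libraries, leaving out each library in turn, and an adjusted p of 0.05 without a fold limit.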

Additional observations from a re-analysis of the deposited data

Results flagged for a closer look

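The KO effect (log2 fold change, KO minus WT) of 12 other genes of the cascade differed between strains by a tested contrast in limma, 18 differences in all. Between PRAKO and PRBKO it was lower in PRAKO for Rras2 (-1.79), Errfi1 (-1.66), Dusp8 (-1.58), Egfr (-1.46), Met (-1.46), Fosl1 (-1.30) and Dusp5 (-1.24). Between PRKO and PRBKO it was lower in PRKO for Met (-2.42), Egfr (-2.29), Dusp10 (-1.94), Dusp8 (-1.85), Rras2 (-1.65), Errfi1 (-1.61), Dok1 (-1.29), Gab2 (-1.17), Sos2 (-1.12), Dusp5 (-1.03) and Fgfr2 (-1.01). Over all 14893 genes the same differences had medians of -0.00 (PRAKO minus PRBKO) and -0.31 (PRKO minus PRBKO). In 13 further cases a gene's KO libraries lay all on one side of WT in a strain and all on the other side in another, but the tested difference did not pass the limits. No member of the 10 showed such opposite sides. Groups of 3 libraries are too small to single out one library by its gap to the others.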

How the results depend on the processing

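Among the 10 genes, fold changes were recomputed under 477 combinations of gene, strain and alternative: 55 moved by more than the spread between replicates, 54 of them with another scaling, and no fold change past the limits changed sign. Rasal1 stayed at 1.48 to 1.72 in PRKO and 2.20 to 2.54 in PRAKO. In PRBKO the small fold changes of Rasal1, Rasa1, Rasa2, Nf1 and Spry4 turned negative with all 3 scalings. At an adjusted p of 0.05 with no fold limit, members past it were 2 in PRAKO and 2 in PRBKO, where 34.5% and 3.48% of all genes were. Members past the limits were 0 to 1 in PRBKO when a library was left out. Other genes of the cascade called in PRKO were 14 of 79 at an adjusted p of 0.05 with no fold limit (9.96% of all genes). In PRAKO they were 1 at a mean of at least 5 TPM, 4 with size factors, 4 when rescaled to protein-coding genes, 29 of 78 at an adjusted p of 0.05 with no fold limit (34.5% of all genes), and 1 to 3 when a library was left out (1 without PRAKO WT replicate 3). With size factors and when rescaled the added genes were Egfr and Fosl1. Quantile normalization added the same genes and lost Dusp2. In PRBKO they were 0 with no filter, with size factors, when rescaled and with quantile normalization, 3 at a mean of 5 TPM or more, 5 in the fit of 18 libraries, 14 of 79 at an adjusted p of 0.05 with no fold limit (3.48% of all genes), and 0 to 6 when a library was left out (0 without PRBKO KO replicate 1). Over all genes the PRBKO calls (19 as reported) were 0 with quantile normalization, 63 without PRBKO WT replicate 4 and 4 without PRBKO KO replicate 1. Differences between strains were 0 to 1 between PRKO and PRAKO when a library was left out, and 5 between PRKO and PRBKO with each of the 3 scalings. Causes were not tested.

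Replicate numbers did not pair the libraries: the correlation of deviations of same-numbered libraries was 0.15, -0.15 and 0.08 in PRKO, -0.04 and -0.01 in PRAKO, and 0.03 and 0.04 in PRBKO. Only replicates 2 and 3 of PRAKO and replicates 1 and 2 of PRBKO occur in both KO and WT. In those strains the replicate block therefore rests on these libraries alone, and its counts are not those of a fit to all libraries. With the replicate block, members past the limits in PRBKO were 1, other genes called were 4 in PRAKO and 7 in PRBKO, and differences between PRAKO and PRBKO were 3. Over all genes 302 were then called in PRBKO.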
